A study of Rattus norvegicus with 4 samples.

Results

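The genes described here are 44 genes of DNA replication and S phase: origin recognition and licensing factors, the replicative helicase, polymerases and primase, the sliding clamp with its loader and partners, enzymes of deoxynucleotide supply, and regulators of S phase entry. They were chosen by name, and a row of the deposited tables counted as a member where its gene name was equal to the listed name. This gave 43 genes among 33778 rows, and all 43 reached the mean of 1 FPKM over the 4 libraries that was required for testing, as did 12334 genes in all. FPKM is the number of fragments scaled to gene length and to the sequencing depth of the library, so levels of different genes are compared per length throughout. E2f1 was not analysed here.

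RNA was sequenced from H9C2, a line of rat cells that came from embryonic heart and resembles myoblasts, under 2 conditions: cells grown without PAGln (control 1 and control 2) and cells given 100 µM PAGln for 48 h (PAGln 1 and PAGln 2). PAGln is phenylacetylglutamine, a product of gut bacterial and host metabolism found in blood. Both groups were the same line in the same medium with serum, penicillin and streptomycin. The labels speak of triplicates in one place and of 2 repeats in another, 2 libraries per condition were analysed, and nothing tells if these were grown apart. The p-values thus rest on the spread of these libraries alone, and that spread may be technical. The values correspond to 13507110 to 14984712 reads per library, and the members had between 66 and 3505 reads each, with a median of 378. The labels call the cells cardiac myocytes. Of the matched cardiomyocyte markers 2 of 12 reached the filter, and 6 of 9 myoblast markers did. So did 7 of 7 smooth muscle and 6 of 10 fibroblast markers, and these counts do not settle the cell type. In the endothelial, macrophage and leukocyte, and epithelial lists 0 of 7, 2 of 9 and 1 of 6 did.

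Replication begins when the origin recognition complex, Cdc6 and Cdt1 load the Mcm2 to Mcm7 ring onto DNA in G1. In S phase Cdc45 and the GINS complex join the ring to make the active helicase, primase and polymerases copy the strands, and the clamp Pcna, placed by the RFC loader, holds the polymerases on DNA. Many of these genes are transcribed by E2F factors as cells pass from G1 into S phase, so their RNA is known as a sign of cycling cells. In a bulk sample a smaller share of cells in S phase and less RNA per cell cannot be told apart.

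The promoters of these genes were searched for E2F sites first, since shared control by E2F is the textbook feature of the set and was not used to choose it. RefSeq promoters of assembly GRCr8, from 250 bases before to 50 bases after the start, were searched on both strands for 4 words of the E2F consensus, TTTCCCGC, TTTGGCGC, TTTCGCGC and TTTGCCGC, whose matches may overlap each other. At least 1 word was present in 17 of the 36 members with a promoter sequence, or 47.2%. The share was 2.25% over all 27457 promoters (618 promoters). The median GC content was 59.8% in the members' promoters and 52.3% in all promoters, and the part of GC content in the share was not tested. Among a separate list of other replication genes 22 of 60 promoters held a word (36.7%), and among mitosis genes, whose promoters had a median GC content of 60.7%, 1 of 22 did (4.55%). A match is a description of the letters and not a measured binding site.

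**Figure D1:**
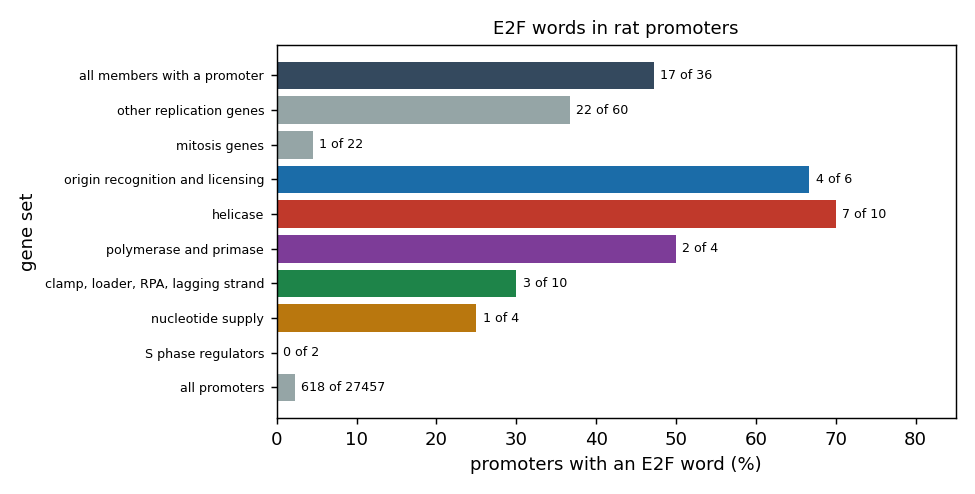
Share of promoters that held at least 1 of the 4 E2F words, in percent, for the members, their role groups, the comparison lists and all rat promoters, with the number of promoters beside each bar. The helicase group had the highest share of the role groups, at 7 of 10, and all promoters together were at 2.25%.

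By role, words were found in 7 of 10 helicase promoters and 4 of 6 origin and licensing promoters, against 3 of 10 in the clamp group, 2 of 4 in the polymerase group, 1 of 4 in nucleotide supply and 0 of 2 among the regulators. In 4 members a pair of overlapping words on opposite strands lay before the start. These were Mcm2, Mcm5 and Mcm6, subunits of the helicase ring, and Gins1, a GINS subunit. They are shown because the overlap gives a palindromic site in Mcm2 and Gins1 and a nearly palindromic one in Mcm5 and Mcm6. They were chosen after the words were seen. The sequences run 5′ to 3′ on the gene's strand, stop before the start, and have the words in capitals. They lie in GRCr8 at chr4:122918095-122918148 on the minus strand for Mcm2, chr19:13488563-13488651 on the plus strand for Mcm5, chr13:42404440-42404531 on the minus strand for Mcm6 and chr3:160184855-160184919 on the plus strand for Gins1.
Mcm2: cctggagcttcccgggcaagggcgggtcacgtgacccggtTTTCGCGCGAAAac
Mcm5: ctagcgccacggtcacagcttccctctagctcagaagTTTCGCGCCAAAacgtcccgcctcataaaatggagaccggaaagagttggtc
Mcm6: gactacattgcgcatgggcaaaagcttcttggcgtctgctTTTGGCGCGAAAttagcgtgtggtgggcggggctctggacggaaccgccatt
Gins1: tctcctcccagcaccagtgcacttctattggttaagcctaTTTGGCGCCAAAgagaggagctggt

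Of the members whose PAGln and control values did not overlap or whose difference was among the widest, 3 had a word before the start, and their promoters are shown for the results that follow. Orc3 lies at chr5:53977842-53977929 on the minus strand, Pola1 at chrX:62342480-62342567 on the minus strand and Tyms at chr9:120776084-120776160 on the minus strand of GRCr8, with the single word in capitals.
Orc3: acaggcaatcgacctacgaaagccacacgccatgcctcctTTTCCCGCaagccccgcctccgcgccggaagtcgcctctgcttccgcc
Pola1: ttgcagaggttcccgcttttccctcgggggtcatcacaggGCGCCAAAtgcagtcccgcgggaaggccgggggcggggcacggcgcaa
Tyms: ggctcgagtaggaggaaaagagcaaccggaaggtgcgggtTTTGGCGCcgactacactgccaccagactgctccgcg

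All role groups were expressed, over a range from about 2 to over 100 FPKM. The highest member was Rrm2, the small subunit of ribonucleotide reductase, at 98.2 and 102 FPKM in the control and 93.8 and 111 FPKM in the PAGln libraries. Its partner Rrm1, the large subunit, was at 60.6 FPKM on average. The clamp Pcna followed Rrm2 in level, at 68.6 and 81.4 FPKM in control and 80.3 and 73.3 FPKM with PAGln. The lowest member in FPKM was Cdc45, at 1.94 and 2.35 FPKM in control and 2.48 and 2.46 FPKM with PAGln. That rank depends on its annotated length of 6392 bases, over which it had 185 to 227 reads a library. Gins1 and Lig1 had fewer reads, 66 to 108 and 100 to 132, over 1077 and 3053 bases. A second annotated locus on chromosome 19, LOC100359539, is described in the tables as a ribonucleotide reductase M2 polypeptide and had a mean of 31.6 FPKM, so reads of the Rrm2 transcript may have been divided between both loci and the level of Rrm2 is uncertain. That locus was picked after its values were seen.

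**Figure D2:**
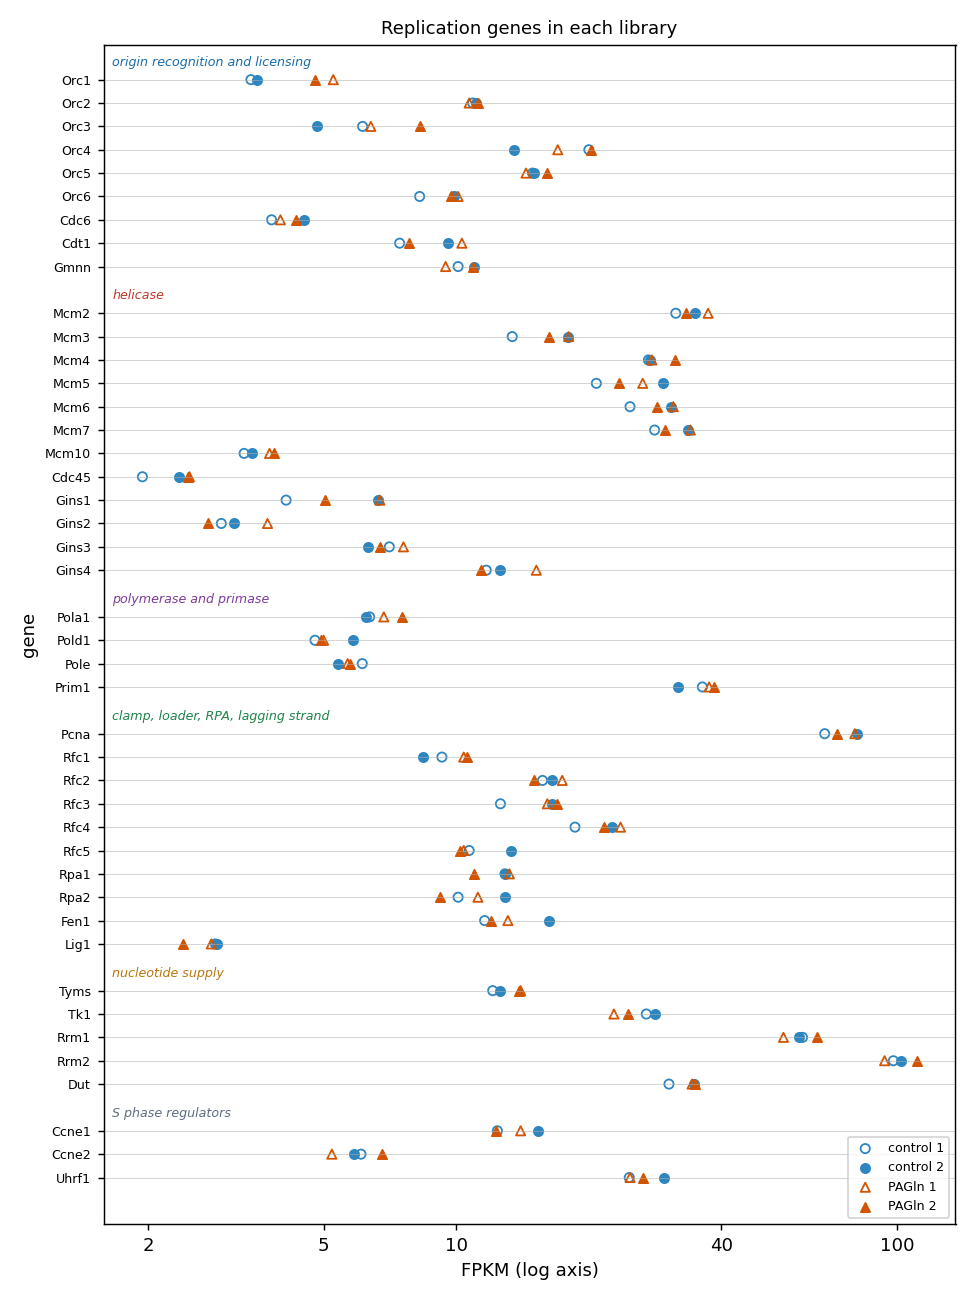
FPKM of the 43 genes in each library, on a log axis, grouped by role, with circles for control and triangles for PAGln libraries and open symbols for replicate 1. The levels of a gene lie close together relative to the range between genes, from Cdc45 at a mean of 2.31 FPKM to Rrm2 at 101 FPKM.

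Subunits that act in 1 complex differed in FPKM, a value that depends on the annotated gene length. In the Mcm2 to Mcm7 ring, Mcm2 had the highest mean, 34.2 FPKM, and Mcm3 the lowest, 16.4 FPKM. Mcm7, Mcm6, Mcm4 and Mcm5, at 31.4, 28.8, 28.5 and 25.1 FPKM, had ranges that overlapped those of their neighbours in this order, while the range of Mcm3 (13.4 to 18.0 FPKM) lay below that of Mcm5 (20.8 to 29.5 FPKM). In the origin recognition complex the order ran from Orc4 (17.7 FPKM) over Orc5 (15.1), Orc2 (11.0), Orc6 (9.50) and Orc3 (6.41) to Orc1 (4.25 FPKM), the ATPase subunit whose level is known to vary through the cell cycle in human cells. Neighbours were apart between Orc5 and Orc2 and between Orc2 and Orc6, and overlapped elsewhere. Among the GINS subunits Gins4 had a mean of 12.7 FPKM and Gins2 3.13 FPKM. Their reads were alike, 164 to 217 a library for Gins4 and 157 to 212 for Gins2. The gap in FPKM thus came from their annotated lengths, 1055 and 4192 bases. Whether these are the lengths of the expressed transcripts was not tested. Prim1, the catalytic primase subunit, had a mean of 36.1 FPKM, far above the catalytic polymerase subunits Pola1 (6.75 FPKM), Pole (5.73 FPKM) and Pold1 (5.14 FPKM), of which Pole and Pold1 overlapped.

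In the clamp group the range of Pcna lay above those of all other members, and Rfc4 at a mean of 21.6 FPKM led the loader subunits, with Rfc1, its largest subunit, at 9.67 FPKM. The single-strand binding proteins Rpa1 and Rpa2 had 12.5 and 10.8 FPKM and the flap nuclease Fen1 had 13.2 FPKM, with overlapping ranges. Lig1, the ligase that joins Okazaki fragments, was the lowest of the group, at 2.84 and 2.87 FPKM in control and 2.78 and 2.40 FPKM with PAGln. The nucleotide enzymes were ordered Rrm2, Rrm1, Dut (33.5 FPKM), Tk1 (25.6 FPKM) and Tyms (13.2 FPKM), with no overlap between neighbours. Of the regulators Uhrf1, which guides maintenance of DNA methylation, had a mean of 26.4 FPKM, cyclin E1 (Ccne1) 13.5 FPKM and cyclin E2 (Ccne2) 5.98 FPKM. Cdc6, the loading ATPase, had the lowest mean of the licensing group, 4.16 FPKM. It had 3.81 and 4.52 FPKM in control and 3.99 and 4.32 FPKM with PAGln. Orc1 was close, at a mean of 4.25 FPKM, and its range of 3.42 to 5.26 FPKM enclosed that of Cdc6.

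PAGln was set against control to see if RNA of the replication machinery differs after the metabolite. No member passed the test, and all differences in mean FPKM were under 1.5-fold. Of the 43 members, 30 were higher with PAGln (69.8%, where 50.6% of all tested genes were). The log2 difference, the PAGln minus the control mean of log2(FPKM + 1), had a median of 0.062 over the members and 0.002 over all tested genes. With limma, 0 of 12334 genes (0%) passed at an adjusted p of 0.05. Without adjustment 262 genes (2.12%) were under 0.05, and Orc1 was the only member among them. limma's voom on reads recovered from the FPKM values gave 0 and 137 genes, with 1 member among the latter. The members' 95% confidence intervals had a median half-width of 0.36, so differences smaller than that could not be told from none for most members. The direction of the median rested on control 1, without which it was -0.00086 and 20 of 43 members were higher. With control 2 left out instead, 35 were higher and the median was 0.107.

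**Figure D3:**
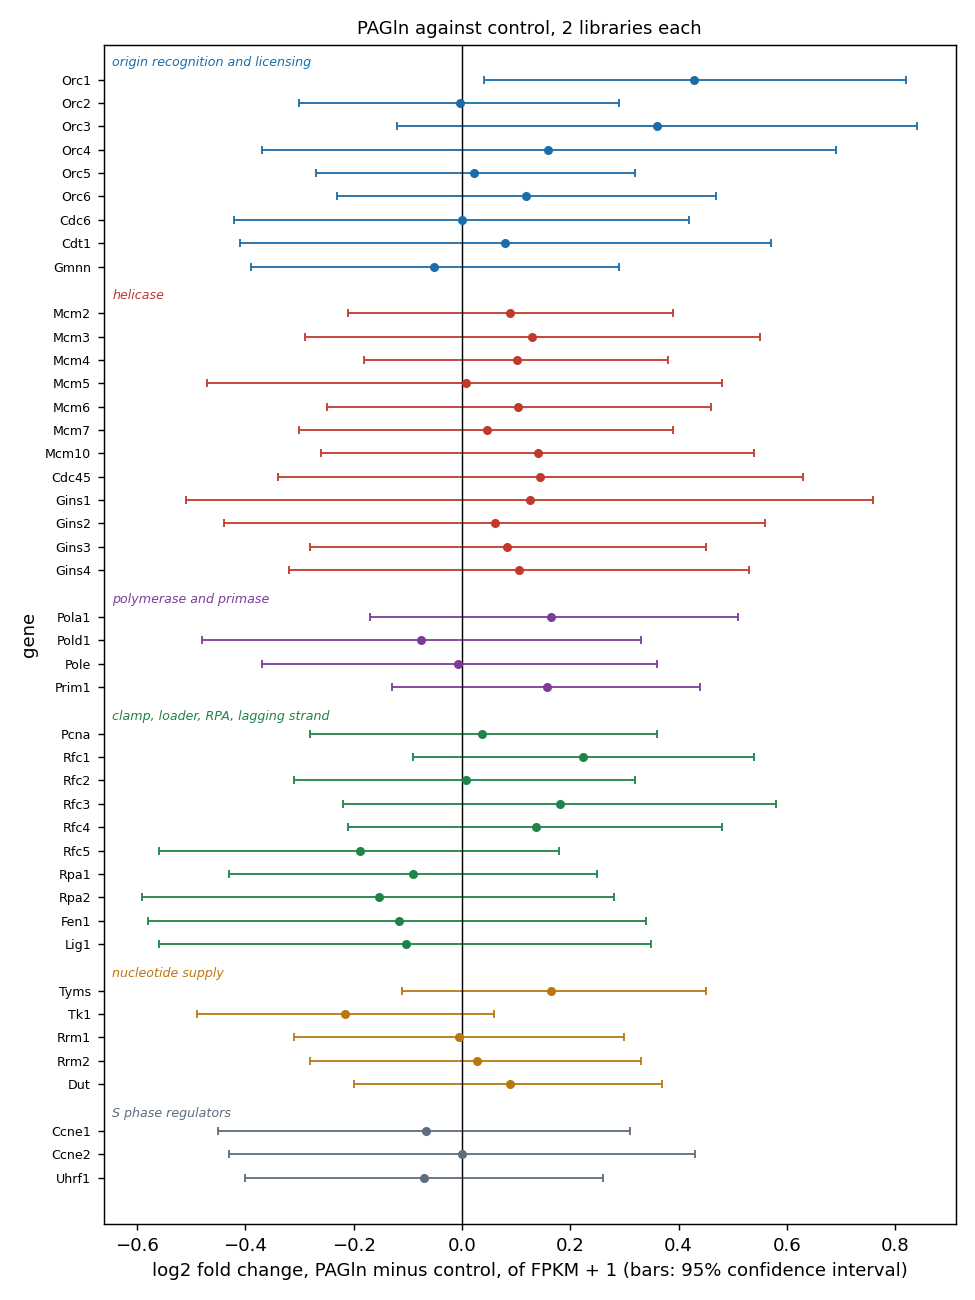
Log2 difference (PAGln minus control, of FPKM + 1) of each gene with its 95% confidence interval from limma, 2 libraries a group, coloured by role. The interval of Orc1, 0.04 to 0.82, is the only one of the 43 that leaves out 0, and the helicase genes all lie between 0.01 and 0.14.

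In 9 members both PAGln values lay above both control values (20.9%, against 11.5% of all tested genes), and in 3 members both lay below (6.98%, against 11.6%). The 9 were Orc1, Orc3, Mcm4, Mcm10, Cdc45, Pola1, Prim1, Rfc1 and Tyms, and the 3 were Rfc5, Lig1 and Tk1. Members share the same 4 libraries, so these counts are not independent of each other, and whether the shares differ from the background was not tested.

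Origin and licensing genes held the widest differences. Orc1 (ENSRNOG00000008841, chromosome 5 from 128190708 to 128210445) had 3.42 and 3.53 FPKM in control and 5.26 and 4.79 FPKM with PAGln, from 130 and 136 reads against 182 and 167. Both PAGln values were higher, at 5.02 ± 0.332 against 3.47 ± 0.0794 FPKM (SD, n = 2 each). The log2 difference came to 0.43 (SE 0.15, 95% confidence interval 0.04 to 0.82, limma adjusted p = 1.00) and lay between 0.372 and 0.484 when any 1 library was left out. Orc3 (ENSRNOG00000008314, chromosome 5 from 50020815 to 50075454), a structural subunit of the complex, had 6.13 and 4.84 FPKM in control and 6.40 and 8.27 FPKM with PAGln. The groups did not overlap, but the gap between control 1 and PAGln 1 was small beside the distance between the libraries of each group. The log2 difference came to 0.36 (SE 0.19, limma adjusted p = 1.00), and was 0.198 without PAGln 2 and 0.523 without PAGln 1.

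Orc4 had 20.0 and 13.5 FPKM in control and 17.0 and 20.2 FPKM with PAGln, so control 2 stood below the other libraries and the groups overlapped. Its log2 difference of 0.16 was -0.105 without control 2. Orc2 had about the same mean in both groups, Orc5 a log2 difference of 0.02 and Orc6 one of 0.12. Cdt1, which brings the Mcm ring to origins, had 0.08, and its inhibitor geminin (Gmnn) -0.05, while Cdc6 was at 0.00. In all, 7 of 9 genes of the group were higher, with a median of 0.079. Without control 1 the median was 0.00093.

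All 12 helicase genes had log2 differences above 0, from 0.01 to 0.14 with a median of 0.102, and none passed the test. The smallest was that of Mcm5, whose mean FPKM was slightly lower with PAGln (25.0 against 25.2) and whose log2 difference was -0.00012 once the trend with gene length was removed. The count of 12 was the same with quantile normalization, median centring and a pseudocount of 0.1, but 7 of 12 were higher without control 1 (median 0.021) and 7 of 12 without PAGln 1 (median 0.0071). Without control 2 or PAGln 2 the median was 0.166 or 0.163, with 12 of 12 higher.

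Mcm10, which helps activate the loaded helicase, had 3.30 and 3.44 FPKM in control and 3.77 and 3.86 FPKM with PAGln, a log2 difference of 0.14 (SE 0.16, limma adjusted p = 1.00). Cdc45 had both PAGln values above both controls, with a log2 difference of 0.14, though control 2 at 2.35 FPKM was near PAGln 2 at 2.46 FPKM and the difference was 0.0499 without control 1. Mcm4 had 27.3 and 27.6 FPKM in control and 27.8 and 31.4 FPKM with PAGln. For Mcm4 PAGln 2 stood clear of the others, and PAGln 1 was close to both controls, so the log2 difference of 0.10 was 0.0151 without PAGln 2. Mcm2 had 31.5 and 34.9 FPKM in control and 37.3 and 33.3 FPKM with PAGln, with overlapping groups and a log2 difference of 0.09. The other ring subunits Mcm3, Mcm6 and Mcm7 had log2 differences of 0.13, 0.10 and 0.05, and the other GINS subunits Gins2, Gins3 and Gins4 had 0.06, 0.08 and 0.10.

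In 36 of 43 members the libraries of at least 1 group lay farther apart than the group means did, Mcm5 and Gins1 among them. The share of all tested genes was not counted, so this count says nothing particular to the members. Mcm5 had 20.8 and 29.5 FPKM in control 1 and control 2, a 1.42-fold step, and 26.5 and 23.4 FPKM in PAGln 1 and PAGln 2. Gins1, read from the fewest reads (66, 108, 98 and 74), had 4.11, 6.65, 6.71 and 5.03 FPKM in the same order. Both genes were high in control 2 and PAGln 1 and low in control 1 and PAGln 2. The direction of their small differences between groups turned without control 1 and without PAGln 1, as it did for Pcna.

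This order of libraries was control 2 above control 1 and PAGln 1 above PAGln 2. It was found in 22 of 43 members (51.2%), against 35.6% of all tested genes. By role, 9 of 12 helicase genes and 7 of 10 genes of the clamp group had it. The reverse order was control 1 above control 2 and PAGln 2 above PAGln 1. It was found in 8 members (18.6%, against 34.3% of all tested genes) and in no gene of the helicase group. Orc3, Orc4, Pola1, Pole, Prim1, Rfc1, Rrm1 and Ccne2 were the 8. The set therefore held genes of both orders, with Mcm5 and Orc4 as opposite examples. Control 2 was 1.42-fold above control 1 for Mcm5 and at 0.678 of it for Orc4. Among the 72 tested other replication genes, 29 had the first order (40.3%) and 23 the reverse (31.9%). In that list, chromatin replication genes had the first order in 6 of 8 and the reverse in 0. Its firing and helicase genes had the first order in 1 of 11 and the reverse in 6. By an exact binomial test on recovered reads, adjusted over all tested genes, the control libraries differed beyond counting error in 18 members and the PAGln libraries in 13. The same test called 41.3% and 36.7% of all tested genes, close to the members' shares of 41.9% and 30.2%.

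**Figure D4:**
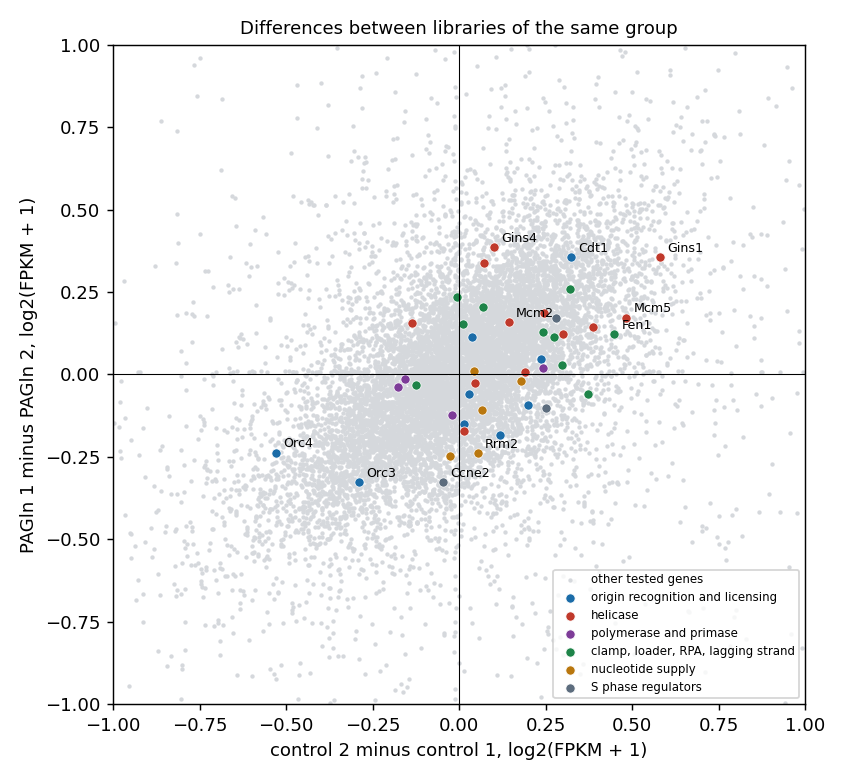
Difference between the libraries of a group on the log2(FPKM + 1) scale, control 2 minus control 1 across and PAGln 1 minus PAGln 2 upward, for the 43 genes (coloured by role) and the other tested genes (grey). Helicase genes lie mostly in the upper right, where 9 of 12 are found, as are 7 of 10 clamp genes. Orc3 and Orc4 lie in the lower left.

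Gene length moved with this order. Over all tested genes the median length was 1744 bases for those higher in control 2 and PAGln 1, and 3136 bases for those with the reverse order, beside 2177 bases over all. In the members the medians were 2205 and 3438 bases. The helicase genes with the first order had a median of 2932 bases, and after removal of each library's trend with length, an adjustment chosen after seeing the data, 9 of 12 helicase genes and 20 of 43 members had it (34.5% of all tested genes). Of those with the order before the removal, 8 of 9 helicase genes and 17 of 22 members also had it after. Most tested markers of muscle cells had this order too, 2 of 2 for cardiomyocytes, 4 of 6 for myoblasts and 5 of 7 for smooth muscle, against 35.6% of all tested genes. Of these muscle markers Myog, Mymk and Acta2 did not have it, and Myocd had the reverse order. Outside muscle, 3 of 6 tested fibroblast markers, 1 of 2 macrophage and leukocyte markers and the 1 tested epithelial marker had it. In each of these 3 lists 0 tested markers had the reverse order. The summed FPKM of the 9 myoblast markers was 301 and 364 in the control libraries and 363 and 296 with PAGln, with 2 of the markers at 0 in every library. The 12 cardiomyocyte markers summed to 131, 175, 190 and 149 FPKM in the same order, nearly all from Tnnt2. The 7 smooth muscle markers, led by Acta2, summed to 5300, 5340, 5420 and 4140 FPKM, and the 10 fibroblast markers, 3 of them at 0 throughout, to 4800, 5080, 4730 and 5160 FPKM. Endothelial markers summed to 1.23 FPKM at most, macrophage markers to 16.7 to 18.9 FPKM and epithelial markers to 26.2 to 34.1 FPKM. The markers' part in the order of the libraries was not tested.

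**Figure D5:**
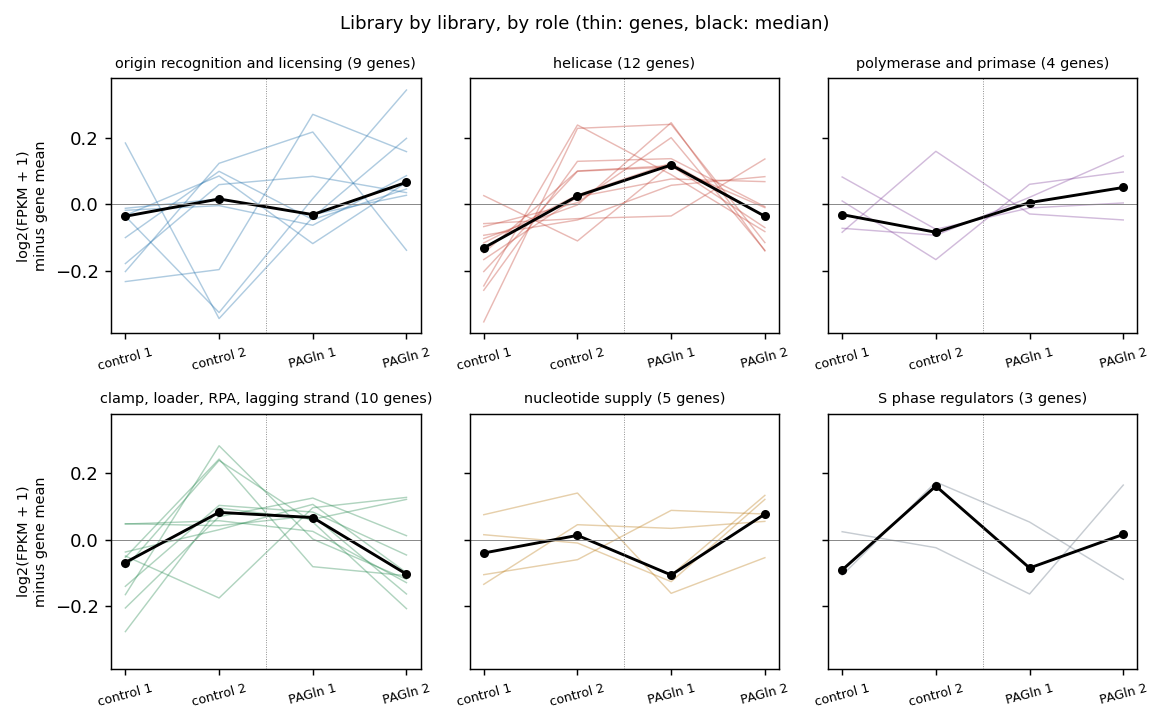
Log2(FPKM + 1) of each gene minus its mean over the 4 libraries (thin lines join the values of 1 gene) and the median of each role group (black), with a dotted line between control and PAGln libraries. The helicase median is at -0.131 and 0.025 in the controls and at 0.118 and -0.036 with PAGln. That of the clamp group is at -0.069 and 0.082 in the controls and at 0.067 and -0.104 with PAGln. That of the 9 origin and licensing genes stays between -0.036 and 0.066.

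The polymerase and primase group had 2 of 4 genes higher, with a median log2 difference of 0.075. Pola1, the catalytic subunit of the polymerase that starts each fragment, had 6.36 and 6.25 FPKM in control and 6.85 and 7.55 FPKM with PAGln, with both PAGln values higher and a log2 difference of 0.17 (SE 0.13, limma adjusted p = 1.00). Its primase partner Prim1 had 36.2 and 31.9 FPKM in control and 37.5 and 38.5 FPKM with PAGln, a log2 difference of 0.16. For Prim1 control 1 was near PAGln 1, and control 2 stood below, without which the difference was 0.0685. Pold1 had 4.78 and 5.84 FPKM in control and 5.00 and 4.93 FPKM with PAGln, so both PAGln values lay between the controls. Pole, the leading strand polymerase, had a log2 difference of -0.01.

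The clamp group had 5 of 10 genes higher and a median log2 difference of -0.042, which was 0.074 without control 2. Rfc1 had 9.28 and 8.42 FPKM in control and 10.4 and 10.6 FPKM with PAGln, from 600 to 685 reads a library. Both PAGln values were higher, with a log2 difference of 0.22 (SE 0.12, 95% confidence interval -0.09 to 0.54). Rfc5, a small subunit of the same loader, lay on the other side, at 10.7 and 13.3 FPKM in control and 10.4 and 10.2 FPKM with PAGln, a log2 difference of -0.19 (SE 0.15). For Rfc5 control 1 was close to PAGln 1, and control 2 stood apart, without which the difference was -0.041. The other loader subunits Rfc2, Rfc3 and Rfc4 had log2 differences of 0.01, 0.18 and 0.14.

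Rpa2 had 10.1 and 12.9 FPKM in control and 11.2 and 9.20 FPKM with PAGln, and its log2 difference of -0.15 was 0.0066 without control 2. Fen1 had 11.6 and 16.2 FPKM in control and 13.1 and 12.0 FPKM with PAGln, a log2 difference of -0.12 that was 0.107 without control 2. In both genes control 2 was the highest library. Rpa1, the large subunit of the same single-strand binding complex as Rpa2, had a log2 difference of -0.09. Lig1 had a log2 difference of -0.10 from 100 to 132 reads a library, and its PAGln 1 value of 2.78 FPKM was near the controls. Without PAGln 2 that difference was -0.0274.

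Among the nucleotide enzymes Tyms and Tk1, which make thymidylate by different routes, lay on opposite sides. Tyms (ENSRNOG00000037225, chromosome 9 from 121918947 to 121931564), which methylates deoxyuridylate, had 12.1 and 12.6 FPKM in control and 14.0 and 13.9 FPKM with PAGln. Both PAGln values were higher and the libraries of each group lay close together, with a log2 difference of 0.17 (SE 0.11, 95% confidence interval -0.11 to 0.45). Tk1 (ENSRNOG00000047314, chromosome 10 from 106817601 to 106828884), the salvage kinase for thymidine, had 27.0 and 28.3 FPKM in control and 22.8 and 24.6 FPKM with PAGln, from 891 and 946 against 684 and 745 reads. Both PAGln values were lower, with a log2 difference of -0.21 (SE 0.11, 95% confidence interval -0.49 to 0.06, limma adjusted p = 1.00). Both genes kept their direction in every alternative that was run, but many of these could not have turned it. Leaving out 1 library cannot do so where the groups do not overlap, and a replicate block leaves the log2 difference unchanged.

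The other nucleotide enzymes differed less between the groups. Rrm1 and Rrm2 had log2 differences of -0.01 and 0.03, and Dut, which removes dUTP, had 0.09. The ratio of Rrm2 to Rrm1, a comparison chosen after the values were seen, was 1.61 and 1.70 in control and 1.69 and 1.68 in PAGln libraries, which is a narrow range beside that of the levels themselves. The median over the 5 genes was 0.027, and it was -0.0928 without PAGln 2.

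The 3 regulators had a median log2 difference of -0.066, which was 0.0562 without control 2 and -0.196 without control 1. Cyclin E2 had 6.08 and 5.85 FPKM in control and 5.22 and 6.80 FPKM with PAGln, with both control values between the PAGln values and a log2 difference of 0.00. Uhrf1 had 24.7 and 29.6 FPKM in control and 24.8 and 26.6 FPKM with PAGln, with overlapping groups and a log2 difference of -0.07. The ratio of cyclin E1 to cyclin E2 was 2.04 and 2.61 in control and 2.68 and 1.81 in PAGln libraries, again with a wider step within than between the groups.

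The rest of the replication machinery was taken from a list of 73 further genes, of which 72 had a row and all 72 were tested. None passed, 1 had an unadjusted p under 0.05, and 50 of 72 were higher (69.4%) with a median log2 difference of 0.048, which was -0.00019 without control 1. In 17 of the 72 both PAGln values lay above both control values (23.6%, against 11.5% of all tested genes), and in 6 both lay below (8.33%, against 11.6%). The smallest unadjusted p was that of Dck, deoxycytidine kinase, with 5.97 and 6.41 FPKM in control and 8.08 and 8.33 FPKM with PAGln, from 104 and 113 reads in control 1 and 2. Both PAGln values were higher, with a log2 difference of 0.36 (SE 0.13, 95% confidence interval 0.03 to 0.69, limma adjusted p = 1.00). Dscc1, a subunit of an alternative clamp loader, had 5.00 and 7.32 FPKM in control and 8.24 and 7.90 FPKM with PAGln, and Pole3, a histone-fold subunit of polymerase epsilon, had 12.9 and 13.9 against 17.1 and 14.5 FPKM. Both were higher in each PAGln library, with log2 differences of 0.36 and 0.21, though control 2 was near PAGln 2 in each. With 1 library left out the log2 difference of Dscc1 ranged from 0.124 (without control 1) to 0.596 (without control 2), and that of Pole3 from 0.103 (without PAGln 1) to 0.325 (without PAGln 2). On the lower side, Rnaseh1, which removes RNA from hybrids with DNA, had 5.82 and 8.88 FPKM in control and 5.75 and 5.17 FPKM with PAGln, a log2 difference of -0.35 that was -0.0793 without control 2 and -0.615 without control 1. The folate enzyme Shmt1 had 10.9 and 12.3 against 9.77 and 9.98 FPKM, and Pold4, a small subunit of polymerase delta, 26.2 and 28.2 against 23.4 and 24.6 FPKM. Both were lower in each PAGln library, with log2 differences of -0.21 and -0.17, and Shmt1 was at -0.133 without control 2.

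Genes of mitosis, another set expressed in cycling cells, had 22 of 25 members higher and a median log2 difference of 0.077, with no member passing. Their order over libraries was not that of the helicase genes. The median deviation from the gene mean was -0.054 and -0.029 in control 1 and 2, -0.003 in PAGln 1 and 0.103 in PAGln 2, while the helicase genes were highest in PAGln 1. Of the mitosis genes 7 of 25 were higher in both control 2 and PAGln 1 than in the other library of the group, and 11 had the reverse order, where the shares of all tested genes were 35.6% and 34.3%. Cks2, which binds cyclin-dependent kinases, had 38.2 and 35.1 FPKM in control and 42.5 and 46.4 FPKM with PAGln. Mad2l1, a spindle checkpoint protein, had 16.8 and 15.7 FPKM in control and 17.8 and 20.0 FPKM with PAGln. In neither gene did the groups overlap, but these 2 were named for the smallest unadjusted p of their list. In 5 of the 25 mitosis genes both PAGln values lay above both control values (20.0%, against 11.5% of all tested genes). In 0 both lay below (against 11.6%). The difference between the mitosis genes and the other sets was not tested.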

How the data were processed

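RNA of H9C2 cells was measured in 4 libraries, grouped by the treatment label (control and PAGln, 2 each). The authors deposited 1 table of FPKM per library. Bowtie 0.12.2 and hg38, a human build, are named per the submitters' processing notes, while the tables hold rat Ensembl identifiers; how strand and multiply matching reads were handled, the counter, and the build of the coordinates were not given in the sources used here. Reads from copies or overlapping genes may therefore have been divided or merged. Coordinates of genes are those of the tables, and those of promoters are RefSeq's in GRCr8. Gene lengths are other values of the same tables, per the file headers.

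FPKM times gene length was a whole multiple of 1 step in each library (100% of values within 0.01), taken as 1 read, which gave the recovered reads. Every gene that averaged at least 1 FPKM was tested with limma 3.58.1 in R 4.3.3 on log2(FPKM + 1), with a variance trend, two-sided, no covariate, and Benjamini-Hochberg adjustment over all 12334 genes at 0.05. The log2(FPKM + 1) scale understates changes of low genes. Errors are SD over libraries and SE from limma. Because the values are FPKM and not counts, a count model was not the main test, and voom on recovered reads was an alternative. The exact binomial test between libraries of a group covers counting error only. The test was checked on simulated data whose added differences were wider than any among the members. Recovery of differences as small as those of the members was not checked.

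The members and lists were chosen with earlier results of these data known. Values in every library are given for members whose groups do not overlap, the 3 largest and 3 smallest changes, the highest and lowest of each role group and the 4 with the widest ratio within a group (24 members in all), and for up to 6 other replication genes and 2 mitosis genes with the smallest p. Ranges and levels of further members are given as descriptions. Alternatives were another pseudocount (0.1), no filter, a filter at 5 FPKM, quantile normalization, median centring, voom, a replicate block and leaving out each library. A crossed block and removal of the trend with gene length were added after seeing the data. Same-numbered libraries of the groups did not deviate together (correlation -0.28 across genes), so the numbers were not used as pairs.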

Additional observations from a re-analysis of the deposited data

How the results depend on the processing

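No member and none of the other replication genes passed under any alternative. Over all tested genes the count of 0 was 7 with the replicate block, 1 with the length trend removed, 0 with the crossed block, and from 1 to 13 when 1 library was left out. The replicate block changed no call of a member. Role medians that moved by more than the replicate spread were 0.0383 for polymerase and primase with the length trend removed and, with 1 library left out, ranged from 0.00093 to 0.1 for origin and licensing, 0.044 to 0.123 for polymerase and primase, -0.136 to 0.074 for the clamp group, -0.0928 to 0.118 for nucleotide supply, -0.00019 to 0.0728 for the other replication genes and 0.0305 to 0.142 for mitosis genes. Of the 24 members with values in every library, 21 kept their direction in all alternatives with 4 libraries. Cyclin E2 was -0.0015 with a pseudocount of 0.1, -0.0173 with quantile normalization, -0.00342 with median centring, -0.00112 with voom and -0.00541 with the length trend removed. Cdc6 was -0.0187 with quantile normalization, -0.00312 with median centring and -0.00536 with the length trend removed, and Mcm5 was -0.00012 with the last. Over all alternatives 13 of 24 kept their direction. Of the 24, 12 had groups that do not overlap, which was a rule for naming them. Leaving out 1 library could not turn these 12, and the blocks left every log2 difference unchanged. The count of 13 is therefore largely set by how the members were named. With 1 library left out the log2 differences ranged from -0.163 to 0.164 for Ccne2, -0.0993 to 0.1 for Cdc6, -0.341 to 0.107 for Fen1, -0.165 to 0.415 for Gins1, -0.234 to 0.248 for Mcm5, -0.105 to 0.423 for Orc4, -0.0842 to 0.159 for Pcna, -0.197 to 0.0458 for Pold1, -0.315 to 0.00656 for Rpa2, -0.0928 to 0.146 for Rrm2 and -0.196 to 0.0562 for Uhrf1. A library left alone in its group took its spread from the other group. The cause of these shifts was not tested. Gins1 and Lig1 had the fewest reads of the members, at 66 to 108 and 100 to 132 reads a library.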
